A study of Mus musculus with 7 samples.

Results

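Eph receptors and ephrins are the cell surface receptors and ligands followed here through the embryonic mouse forebrain. The members were chosen by symbol: the receptor genes Epha3, Epha4, Epha5, Epha7, Ephb1 and Ephb2 and the ligand genes Efna2, Efna5, Efnb1 and Efnb2. They are 10 of the 22 Eph and ephrin genes in a count matrix of 21862 genes. All groups were untreated CD-1 mouse embryos with no engineered allele, and the tissue was dissected dorsal forebrain. By their labels they differ only in stage, with 1 sample each at E10.5, E12.5, E15.5, E16.5 and E18.5 and 2 samples at E14.5 (E is the embryonic day). The matrix holds 10261 single cells captured by Drop-seq, a droplet method that counts mRNA molecules near their 3′ ends by unique molecular identifiers (UMIs). The labels name no litters or embryos per sample, so p-values rest on these samples only. For stage slopes they measure the spread between samples around the trend. With the sample as a block, they measure how class differences vary between samples.

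Eph receptors are receptor tyrosine kinases, and their ephrin ligands are themselves bound to the membrane of a neighbouring cell. A-class receptors mainly bind ephrin-A ligands, which are held by a lipid anchor, and B-class receptors mainly bind ephrin-B ligands, which span the membrane. EphA4 also binds ephrin-B ligands. Signals can run into both cells, into the receptor cell as forward and into the ligand cell as reverse signalling. In the developing cortex the family is known for area and layer boundaries, axon guidance, radial migration and the attachment and division of progenitors.

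The results turn on 3 members, and the 250 bases upstream of their RefSeq start sites (GRCm38.p6) are shown to place them, in lower case with matches to GGGCGG, the GC box, on either strand in capitals. Epha5 is on the minus strand at chr5:84417383-84417632, Epha3 on the minus strand at chr16:63864176-63864425 and Efnb1 on the plus strand at chrX:99135811-99136060.
Epha5: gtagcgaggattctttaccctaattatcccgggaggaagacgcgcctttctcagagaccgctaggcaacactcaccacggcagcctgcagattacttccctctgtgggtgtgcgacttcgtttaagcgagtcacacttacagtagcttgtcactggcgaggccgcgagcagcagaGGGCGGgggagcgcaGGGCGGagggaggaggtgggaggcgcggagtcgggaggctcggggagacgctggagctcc
Epha3: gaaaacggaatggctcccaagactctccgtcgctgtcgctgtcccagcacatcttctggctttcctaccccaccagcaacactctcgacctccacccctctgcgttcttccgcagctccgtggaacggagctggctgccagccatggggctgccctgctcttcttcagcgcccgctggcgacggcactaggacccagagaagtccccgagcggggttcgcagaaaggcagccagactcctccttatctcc
Efnb1: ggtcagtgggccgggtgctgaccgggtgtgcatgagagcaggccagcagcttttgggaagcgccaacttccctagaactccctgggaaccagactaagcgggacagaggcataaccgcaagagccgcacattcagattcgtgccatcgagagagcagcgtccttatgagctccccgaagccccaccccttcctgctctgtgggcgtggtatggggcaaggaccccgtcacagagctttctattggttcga

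All 10 symbols matched the RefSeq promoter table. The Epha5 window holds 2 matches to GGGCGG, and those of Epha3 and Efnb1 hold 0. Of 32851 promoters of the table, 32.7% hold at least 1. The E-box letters CAGATG (14.4% of promoters, both strands) and CAGCTG (13%) are in none of the members' windows, which says only that these letters are not there. The members' windows had a GC content of 54.0% to 74.8% against a median of 52.4% over the table. In the GENCODE M21 annotation (GRCm38) Epha5 spans 84054761 to 84417382 of chromosome 5, Epha3 spans 63543534 to 63864175 of chromosome 16 and Efnb1 spans 99136130 to 99148991 of chromosome X. All 10 members are annotated as protein-coding.

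The samples held 387 to 3235 cells and 1519473 to 6638760 UMIs each. Median depth ran from 1645 UMIs per cell in E14.5 replicate 1 to 3352 in E14.5 replicate 2. The median mitochondrial share was 5.41% at E10.5, 3.83% at E12.5, 2.25% in E14.5 replicate 1 and 7.53% at E18.5. Each stage has its own libraries, so stage cannot be told apart from library or from these measures. The deposited table gives every cell 1 of 19 cluster numbers without a name, and these were put into classes by marker genes. Labels 1, 3, 6, 10 and 12 were apical progenitor-like (radial glia and neuroepithelium), 4 and 7 intermediate progenitor-like, 2, 5, 9 and 11 projection neuron-like, and 8 interneuron-like. Smaller classes were Cajal-Retzius-like, mesenchymal-like, endothelial-like and microglia-like cells. Label 0, led by Unc5d, Nhlh1, Neurod1 and Sstr2, label 14, led by Wnt8b and Rspo2, and label 18, led by Rgs5, stayed unnamed. Label 6 made up 90.8% of the apical class at E10.5, and label 12, led by Olig1 and Olig2, made up 83.4% of it at E18.5, so stage and label changed together. Levels are CPM, a gene's share of all UMIs of the summed cells of a class scaled to the same total in every sum, which cannot tell fewer expressing cells from less RNA per cell.

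**Figure D1:**
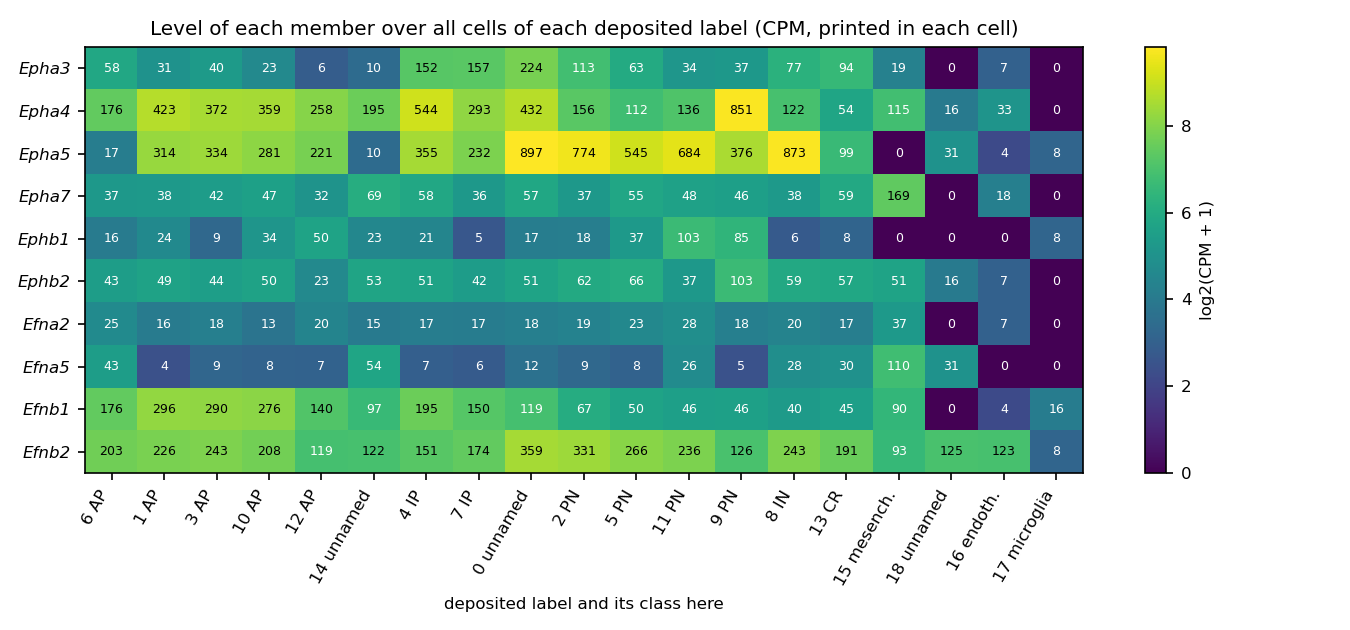
Level in CPM (printed in each cell, colour on a log2 scale) of the 10 members (rows) over all cells of each deposited label (columns; AP, IP, PN, IN and CR are apical progenitor-, intermediate progenitor-, projection neuron-, interneuron- and Cajal-Retzius-like). Epha5 is brightest in labels 0, 2 and 8, Epha4 in label 9, and Efnb1 in labels 1, 3 and 10.

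Epha5, an A-class receptor gene, was close to 0 in apical progenitors at E10.5 and present from E12.5 on. Its level there was 9.83 CPM at E10.5, then 338 at E12.5, 333 and 231 in the E14.5 samples, 222 at E15.5, then 187 at E16.5 and lastly 188 at E18.5. The E10.5 sample stood far below the other 6, which lay within a 2-fold range. The E12.5 level was 34.4-fold that of E10.5 (95% interval 23.6 to 52.0, from 28 counts at E10.5 against 931 at E12.5). With 1 sample at each of these stages there is no test, and exact intervals cover counting error only. Epha5 was named in advance for this step, so the ratio is a description.

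The step was also described within parts of the 2 samples, which are pieces of the same sums and add no independent evidence. Cells of the first-numbered libraries gave 32.9-fold and those of the second-numbered libraries 35.5-fold. Within label 6, which held 621 cells at E10.5 and 41 at E12.5, Epha5 went from 9.5 to 225 CPM, a 23.7-fold ratio (12.8 to 43.5). In labels 1, 3 and 10 combined the ratio was 18.9-fold, but it rested on 2 counts at E10.5 and its interval ran from 5.21 to 156. At E10.5 label 1 had 0 Epha5 counts in 34 cells and label 10 held 1 cell, so neither alone gives a ratio. Cells with at least 1 Epha5 UMI made up 3.07% of apical progenitor-like cells at E10.5 and 44.0% at E12.5, although the E10.5 cells were deeper (median 3369 UMIs against 1859). After each cell was thinned to 1000 UMIs, leaving out 100 and 209 shallower cells, the shares were 1.71% (10 of 584 cells; 0.824% to 3.13%) and 26.8% (267 of 995; 24.1% to 29.7%). In mesenchymal-like cells at E10.5, a class outside the neural lineage (median 3838 UMIs), 0 of 121 thinned cells had an Epha5 UMI, which allows a share of up to 2.48%. The E10.5 progenitor share is below that limit, so that by share it cannot be told apart from free RNA in the droplets. Its level was 9.83 CPM (6.53 to 14.2), and 0 counts in the mesenchymal-like cells allow up to 4.66 CPM (5.72 by the exact interval). The source of the E10.5 counts was not tested. Over all stages, endothelial-like cells had 1 Epha5 UMI in 276775 and microglia-like cells 1 in 122139.

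**Figure D2:**
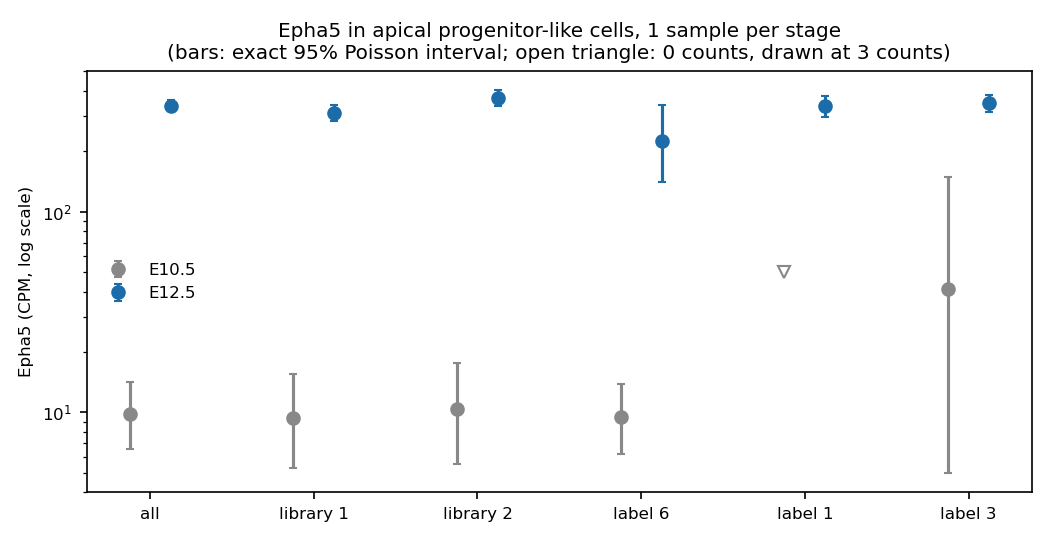
Epha5 level (CPM, log scale) in apical progenitor-like cells at E10.5 (grey) and E12.5 (blue), for all cells and by library and deposited label; bars are exact 95% Poisson intervals of counting error and the open triangle is a count of 0 drawn at the level of 3 counts. The E12.5 point is above the E10.5 point in every pair, and label 3 at E10.5 rests on 2 counts.

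Neuronal RNA in the progenitor sums was followed with the 28 projection neuron markers. At E10.5, 24 of the 28 had a count and together they reached 1430 CPM, with Neurod2, Neurod6, Slc17a7 and Grin2b at 0. At E12.5, 26 of 28 had a count and the sum was 1916 CPM, against 19616 CPM in projection neuron-like cells of that stage. Much of the progenitor sums was 1 gene, Map1b. Without it they were 568 CPM at E10.5 and 818 at E12.5, against 15901 in the E12.5 neurons. For each count of Neurod6, a neuronal transcription factor gene, there were 5.41 counts of Epha5 in the progenitors and 0.338 in the neurons at E12.5. Label 0 and interneuron-like cells, at 862 and 751 CPM of Epha5 at E12.5, were not compared in this way. The source of the Epha5 counts in the progenitor sums was not tested.

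The E10.5 and E12.5 apical progenitors were 2-fold or more apart for 5.58% of the genes that reached 50 CPM in at least 1 of them (246 of 4407). Among the members, 6 reached that level and 2 passed, Epha5 and Epha4. Epha5 was named in advance for this step, so the count is not a result about the family. Epha4 was 2.1-fold higher at E12.5 (1.88 to 2.35), at 166 and 348 CPM. Epha3, Epha7, Efnb1 and Efnb2 had ratios of 0.910 to 1.69. Efna5, an ephrin-A gene below 50 CPM, was 4.35-fold lower at E12.5 (2.83 to 6.94; 117 counts against 26). It was at 45.2 and 13.4 CPM in the first-numbered libraries and at 35.8 and 5.25 in the second-numbered ones. Within label 6 Efna5 was not lower, at 41.6 CPM at E10.5 and 71.6 at E12.5 (7 counts; 28.8 to 148), and label 6 held most apical cells at E10.5 only.

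Most other classes were also low in Epha5 at E10.5. Intermediate progenitor-like cells had 7.93 CPM of Epha5 at E10.5 (1 count in 33 cells) and 258 at E12.5. Interneuron-like cells had 28.2 CPM (3 counts in 30 cells) and 751. Cajal-Retzius-like cells, which are early-born neurons, had 98.7 CPM at E10.5 (22 counts in 66 cells; 61.9 to 149), and 268 at E12.5. The E10.5 level rested on 1 library, with 128 CPM (20 counts) in the first and 30.2 (2 counts in 1 cell) in the second. Label 14 was at 7.33 CPM at E10.5.

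After E10.5 Epha5 was lower in both progenitor classes than in projection neuron-like cells. In intermediate progenitors the level was 258 CPM at E12.5, next 423 and 367 at E14.5, 272 at E15.5, then 247 at E16.5 and lastly 106 at E18.5. In projection neuron-like cells it was 953 at E12.5, next 648 and 576 at E14.5, 546 at E15.5, then 465 at E16.5 and lastly 511 at E18.5, higher than in both progenitor classes in 6 of 6 samples. Cells of label 0 lay between 760 and 1049 CPM in all 6 samples, above the projection neurons in 5 of 6. Interneuron-like cells reached 1494 and 1258 at E14.5 and 1456 at E15.5 and were at 406 at E18.5, so that they were above the projection neurons in 4 of 6 samples. The 2 progenitor classes overlapped, and intermediate progenitors were higher in 4 of 7 samples.

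The fit across all genes, with the sample as a block, compared these classes. In it, 5 members were higher and 1 was lower in projection neuron-like than in apical progenitor-like cells, of 9 that passed the filter on low counts. Of all 8690 tested genes 60.7% passed, 31.9% higher and 28.8% lower, and a members' count of 6 of 9 near that background is not a result about the family. Their median difference was 0.72, against 0.04 over all genes. Epha5 was higher in projection neurons by 1.42 on the log2 scale (standard error 0.179, edgeR adjusted p = 4.52e-08). Against intermediate progenitors, where 48.6% of all genes passed (26.1% higher, 22.5% lower) and 5 members did, the difference was 1.32 (0.190, adjusted p = 8.84e-07). Interneurons exceeded projection neurons by 0.59 (0.181, adjusted p = 0.0278) against a background of 13.3% (4.94% higher, 8.38% lower). The difference between intermediate and apical progenitors was 0.10 (0.193) and did not pass (adjusted p = 0.758).

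These calls changed with the clustering. When cells were clustered anew without the 22 Eph and ephrin genes, label 0 was divided between the intermediate progenitor and the projection neuron class. Epha5 then differed between intermediate and apical progenitors by 1.06 (adjusted p = 4.99e-05) and between projection neurons and intermediate progenitors by 0.33 (adjusted p = 0.161). The interneuron difference was lost under 7 alternatives, among them clustering anew (0.53, adjusted p = 0.0638), no sample block (0.43, adjusted p = 0.707) and the removal of E14.5 replicate 1, E14.5 replicate 2, E15.5 or E16.5 (adjusted p = 0.111 to 0.201).

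Within the projection neuron class Epha5 also varied by label. Label 2 had 978 CPM at E12.5, next 734 and 537 at E14.5 and 488 at E15.5. Label 9, led by Grp and Crym, had 217 at E14.5, 354 at E15.5, then 550 at E16.5 and lastly 445 at E18.5. At E14.5 label 9 was thus below labels 2, 5 and 11 of the same sample, which were at 657 to 741, and at E16.5 it was above label 5 (400) and near label 11 (534).

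Epha3, another A-class receptor gene, was low in apical progenitors and highest in label 0. Apical progenitors had 58.6 CPM at E10.5, then 53.4 at E12.5, 14.3 and 26.0 at E14.5, 1.85 at E15.5, then 0 at E16.5 (which allows up to 11 CPM) and 4.95 at E18.5. Intermediate progenitors had 119, 199, 136 and 112, 147, 66.6 and 70.7 CPM over the same samples, above the apical cells in 7 of 7. Label 0 had the highest levels, from 317 CPM at E12.5 through 225 and 241 at E14.5, 168 and 110 to 99.8 at E18.5. It was above intermediate progenitors and projection neurons in 6 of 6 samples. Projection neurons were at 127, 77.5 and 81.4, 33.7, 49.0 and 58.7 CPM from E12.5 on.

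The class differences of Epha3 were 2.42 between intermediate and apical progenitors (standard error 0.355, adjusted p = 4.16e-06) and 1.78 between projection neurons and apical progenitors (0.355, adjusted p = 7.29e-05). In the first of these comparisons 27% of all genes passed (12.8% higher, 14.2% lower), and among the members only Epha3 was higher and only Efnb1 lower. Both Epha3 differences passed under every alternative run. Projection neurons and intermediate progenitors differed by -0.63 (0.328, adjusted p = 0.113), with projection neurons lower in 6 of 6 samples.

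**Figure D3:**
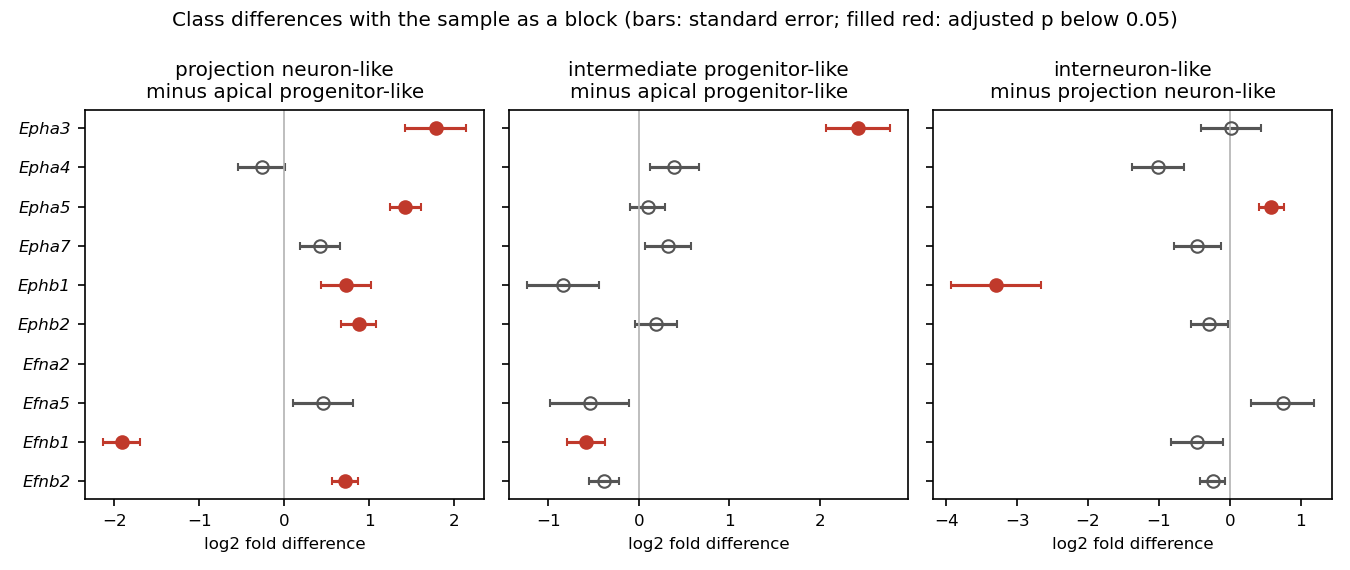
Log2 fold difference between classes (horizontal axis) for the members that passed the filter on low counts; points are estimates with the sample as a block, bars are standard errors, and filled red points have an adjusted p below 0.05. Epha3 is to the right in both comparisons with apical progenitors, Efnb1 to the left, and Ephb1 is far to the left in interneuron-like cells.

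Epha3 also fell with stage. In apical progenitors its slope was -0.60 on the log2 scale per day (standard error 0.110, edgeR adjusted p = 0.00618), and it was the only one of 9 tested members to pass, where 9.31% of all genes did (2.92% lower). It passed in each alternative, with slopes of -0.81 to -0.54 when 1 sample was left out. Within label 1 Epha3 was at 61.7 CPM at E12.5, next 6.77 and 27.6 at E14.5 and 0 at E15.5 (which allows up to 25.7). Label 3 had 52.7 CPM at E12.5, next 20.6 and 39.0 at E14.5, and its 0 at E15.5 (20 cells) allows up to 81.0, so that no fall is shown there after E14.5. In label 0 the slope was -0.29 (0.0587, adjusted p = 0.0110), again the only member of 8 that passed, against 1.46% of all genes (0.599% lower). That call was lost without E12.5 (adjusted p = 0.156) or E18.5 (0.0978) and with cells of at most 5% mitochondrial UMIs (0.433). The last of these left too few cells of label 0 for a sum at E16.5 (4 cells) and E18.5 (18 cells).

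In projection neurons the Epha3 slope was -0.18 (0.0732, adjusted p = 0.222). The difference between the projection neuron and the apical slope, fitted with the sample as a block over the 6 samples that hold both classes and so without E10.5, was 0.52 per day (0.134, adjusted p = 0.0350), where 4.33% of all genes passed (2.06% higher). It was lost under 8 alternatives, among them DESeq2 (adjusted p = 0.245) and no sample block (0.10), and without E12.5 (0.279), E14.5 replicate 1 (0.0780), E16.5 (0.0654) or E18.5 (0.0684).

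**Figure D4:**
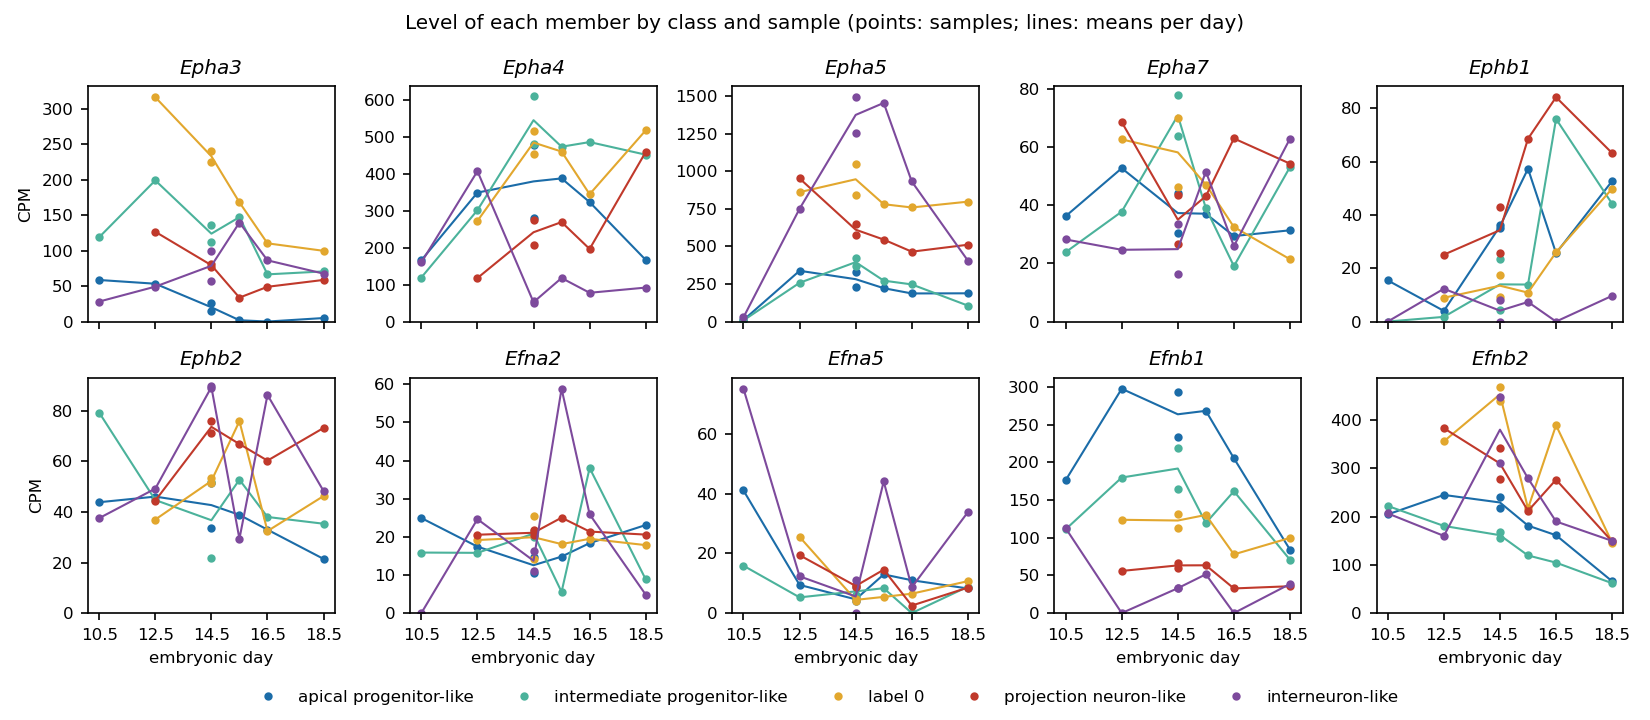
Level (CPM) of each member against embryonic day in 5 groups of cells; points are samples and lines join the means per day. Epha3 falls in apical progenitors and label 0, Epha5 is near 0 in progenitors at E10.5 only, and Efnb1 is highest in apical progenitors from E10.5 to E16.5.

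Epha4, the A-class receptor gene whose protein binds ligands of both classes, was present in both progenitor classes and in label 0, and in projection neurons it was highest in label 9. Apical progenitors had 166 CPM at E10.5, then 348 at E12.5, next 477 and 281 at E14.5, 387 at E15.5, then 323 at E16.5 and lastly 167 at E18.5. Intermediate progenitors had 119, 301, 609 and 480, 472, 485 and 451. Projection neurons had 118 at E12.5, next 275 and 208 at E14.5, 269 at E15.5, then 196 at E16.5 and lastly 458 at E18.5. Label 0 was at 272 to 517 CPM from E12.5 on, above the projection neurons in 6 of 6 samples and above apical progenitors in 5 of 6. The 2 E14.5 samples of the apical class differed by more than E12.5 and E15.5 did. Projection neurons were below apical progenitors in 5 of 6 samples, and the difference of -0.27 (standard error 0.279) did not pass (adjusted p = 0.422); without E18.5 it was -0.72 and passed (adjusted p = 0.0130). Against intermediate progenitors it was -0.66 (0.285, adjusted p = 0.0559), which passed under 11 alternatives. Interneurons were at 160 CPM at E10.5, 406 at E12.5 and 49.0 to 118 in the later samples, with a log2 difference from projection neurons of -1.01 (0.368, adjusted p = 0.0666). It was 0.09 without label 9 (adjusted p = 0.916), and with 1 sample left out it ran from -1.62 to -0.64 and passed without E10.5 (adjusted p = 0.0325) or E12.5 (0.000847).

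The cells of label 9 were at 840 CPM at E14.5, 754 at E15.5, then 610 at E16.5 and lastly 1012 at E18.5. Labels 2, 5 and 11 lay between 72 and 197 CPM in all their samples and did not overlap with label 9. Labels come from clustering on these counts, so this is a description without a test. Leaving out label 9, the projection neuron-like label with the highest Epha4, was chosen after seeing the data and had to lower the projection neuron level. The log2 difference of projection neurons was then -1.40 from apical and -1.76 from intermediate progenitors, which is a description as well.

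With stage, Epha4 rose in projection neurons by 0.28 per day (standard error 0.0588, adjusted p = 0.0205), the only 1 of 10 members to pass, where 3.08% of all genes did (2.05% higher). Over the same days label 9 went from 0.880% of projection neuron-like cells at E12.5 to 7.34% and 12.3% at E14.5, 21.3% at E15.5, then 21.1% at E16.5 and lastly 32.4% at E18.5. Without label 9 the slope was 0.01 (adjusted p = 0.958). Removing the label with the highest Epha4 and a growing share had to lower this slope and its excess over the apical slope. The values without label 9 are thus descriptions, and the cause of the rise was not tested. The call was also lost without E12.5 (adjusted p = 0.0986), without E18.5 (0.278) and with cells of at most 5% mitochondrial UMIs (0.0583). In apical progenitors the slope was 0.02 (0.0785, adjusted p = 0.928). In the fit over the 6 samples that hold both classes, which leaves out E10.5, the projection neuron slope exceeded the apical slope by 0.46 (0.0668, adjusted p = 0.000429), and this was lost without label 9 (0.17, adjusted p = 0.314) and without E18.5 (0.26, adjusted p = 0.135).

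**Figure D5:**
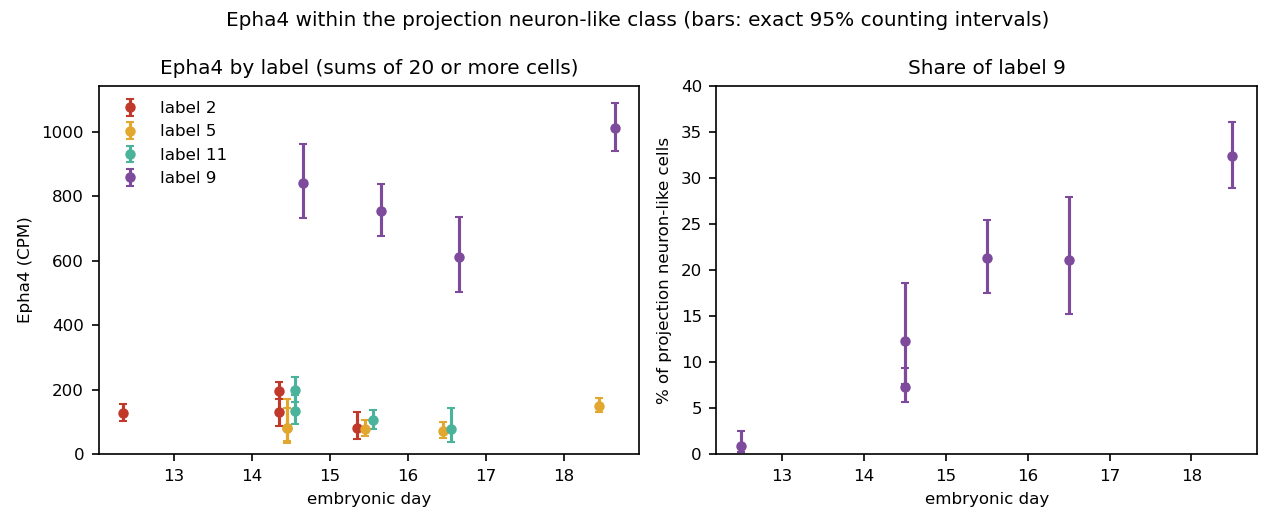
Left, Epha4 level (CPM) against embryonic day in the projection neuron-like labels 2, 5, 9 and 11; right, share of label 9 among projection neuron-like cells (%). Bars are exact 95% counting intervals; label 9 lies at 610 to 1012 CPM above all other labels, and its share is 0.880% at E12.5 and 32.4% at E18.5.

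Epha7, an A-class receptor gene, showed little difference between neural classes. Apical progenitors lay between 29.3 and 52.6 CPM, intermediate progenitors between 19.0 and 77.8, projection neurons between 26.5 and 68.5 and interneurons between 16.3 and 62.8, and all these ranges overlap. Its differences between classes were -0.46 to 0.42 on the log2 scale and did not pass. Its highest level was in mesenchymal-like cells at E10.5, with 169 CPM in 142 cells, a class with 1 sample.

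As class sums, the B-class receptor genes were higher in projection neurons than in progenitors in most samples, but not in every label or under every alternative. Over all its cells label 11 had 36.9 CPM of Ephb2, within the 23.5 to 49.7 of the apical labels. Label 2 had 17.6 CPM of Ephb1, within the apical 8.99 to 50.2. Ephb1 had 25.1 CPM in projection neurons at E12.5, next 42.8 and 25.8 at E14.5, 68.6 at E15.5, then 84.2 at E16.5 and lastly 63.2 at E18.5. Interneurons had 0 to 12.3 CPM, with 0 counts in 3 of 7 samples, and were below projection neurons in 6 of 6 samples. The log2 difference between interneurons and projection neurons was -3.30 (standard error 0.629, adjusted p = 0.000334). With cells of at most 5% mitochondrial UMIs, which left interneuron sums at E12.5 and E14.5 only, it was -2.39 (adjusted p = 0.207). Against intermediate progenitors projection neurons were higher by 1.56 (0.376, adjusted p = 0.000928). Against apical progenitors the difference of 0.72 (0.297, adjusted p = 0.0355) was lost under 12 of its alternatives, among them DESeq2 (adjusted p = 0.175) and the removal of E12.5 (0.181), E14.5 replicate 1 (0.0845), E15.5 (0.0674) or E16.5 (0.118). Within the neurons, labels 9 (71.3 to 99.4 CPM) and 11 (49.1 to 240) were above labels 2 and 5 (0 to 44.5). The stage slope of Ephb1 was 0.30 per day in apical progenitors (0.105, adjusted p = 0.0956; 0.0406 without label 6) and 0.27 in projection neurons (0.0909, adjusted p = 0.140; 0.0396 without E18.5). Label 14 had 14.7 CPM of Ephb1 at E10.5 and 128 at E14.5, but these 2 sums held 20 counts together, so the later level rests on few counts.

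Ephb2 was at 44.5 CPM in projection neurons at E12.5, next 71.4 and 76.0 at E14.5, 66.9 at E15.5, then 60.3 at E16.5 and lastly 73.3 at E18.5. Apical progenitors had 43.9 at E10.5, 46.1, 51.7 and 33.8, 38.9, 33.0 and 21.4 CPM. The classes were alike at E12.5 and apart from E14.5 on, with projection neurons higher in 5 of 6 samples. The difference was 0.88 (standard error 0.205, adjusted p = 0.000487) against apical and 0.68 (0.230, adjusted p = 0.0143) against intermediate progenitors. The first was lost with cells of at most 5% mitochondrial UMIs (adjusted p = 0.0698). The second was lost there (0.163), without label 9 (0.164), and without E14.5 replicate 1 (0.0589), E14.5 replicate 2 (0.111) or E18.5 (0.0729). Label 9 had the highest Ephb2 of the neuronal labels over all its cells, 103 CPM.

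The ephrin-A members were sparse. Efna2 lay between 10.4 and 24.9 CPM in apical progenitors and between 20.4 and 25 in projection neurons, and it did not pass the filter on low counts in the comparison of classes. Efna5 was highest at E10.5 in apical progenitors (41.1 CPM) and in interneuron-like cells (75.2 in 30 cells, with all 8 counts in the first library). At that stage it was at 61.1 CPM in label 14 and at 110 in mesenchymal-like cells, a class with 1 sample. Cajal-Retzius-like cells were not highest then, with 53.9 CPM at E10.5 and 61.9 at E12.5 (3 counts). From E12.5 on apical progenitors had 4.01 to 13 CPM and projection neurons 2.51 to 19.4. No Efna5 difference between the tested classes passed (adjusted p = 0.0578 to 0.392).

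The ephrin-B members differed in opposite directions between progenitors and projection neurons. Efnb1 was at 176 CPM in apical progenitors at E10.5, then 298 at E12.5, next 294 and 234 at E14.5, 268 at E15.5, then 205 at E16.5 and lastly 84.1 at E18.5. Intermediate progenitors had 111, 180, 219 and 164, 119, 162 and 70.7. Projection neurons had 55.9 at E12.5, next 66.8 and 59.7 at E14.5, 63.4 at E15.5, then 32.7 at E16.5 and lastly 35.6 at E18.5. The order from apical through intermediate progenitors to projection neurons held in each of the 6 samples with all 3 classes. Projection neurons were below apical progenitors (log2 difference -1.91, standard error 0.215, adjusted p = 5.43e-09) and below intermediate progenitors (-1.33, 0.235, adjusted p = 2.17e-05), under every alternative run. Intermediate progenitors were below apical ones by a log2 difference of -0.58 (0.211, adjusted p = 0.0392) and in 7 of 7 samples. That call was lost with DESeq2 (adjusted p = 0.0717), without the block (0.171), and without E12.5 (0.0831), E14.5 replicate 1 (0.0636), E14.5 replicate 2 (0.0990) or E15.5 (0.161).

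Efnb2 was higher in projection neurons as a class, though not in each of their labels. Over all its cells label 9 had 126 CPM, within the 119 to 243 of the apical labels. Interneurons had 150 to 449 CPM and were above projection neurons in 3 of 6 samples. Projection neurons had 383 CPM at E12.5, next 278 and 342 at E14.5, 212 at E15.5, then 277 at E16.5 and lastly 149 at E18.5. Apical progenitors had 205 at E10.5, then 245 at E12.5, next 217 and 242 at E14.5, 181 at E15.5, then 161 at E16.5 and lastly 66.0 at E18.5. Projection neurons were above both progenitor classes in 6 of 6 samples, by 0.72 (standard error 0.153, adjusted p = 0.000170) against apical and 1.10 (0.171, adjusted p = 3.11e-06) against intermediate progenitors, under every alternative run. In projection neurons and both progenitor classes the lowest level was at E18.5. The slopes were -0.17 in apical progenitors (adjusted p = 0.0827), -0.20 in intermediate progenitors (0.0922) and -0.20 in projection neurons (0.0728), and none passed. DESeq2 called it in apical progenitors (adjusted p = 0.0326) and projection neurons (0.0259), and edgeR called it in apical progenitors without E10.5 (-0.28, adjusted p = 0.0205). Without E18.5 the apical slope was -0.06 (adjusted p = 0.541).

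In intermediate progenitors 0 of 8 members had a slope that passed (1.42% of all genes did). There, 3 were below an unadjusted p of 0.05 and DESeq2 called 1. In interneurons 0 of 5 members passed (1.86% of all genes), 1 was below an unadjusted 0.05 and DESeq2 called 0. Without E18.5 Epha5 rose in interneurons by 0.57 per day (adjusted p = 0.0327), and over all samples its slope there was 0.22 (0.172, adjusted p = 0.594).

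Of the 12 other Eph and ephrin genes, 3 passed the filter in the comparison of classes, all ligand genes. Efna3 was highest in projection neurons among the tested classes, with 32.0 to 51.6 CPM in all 6 samples against 0 to 2.60 in apical progenitors, 0 to 9.51 in intermediate progenitors and 0 to 22.3 in interneurons. It was higher in projection neurons than in apical progenitors (log2 difference 4.93, standard error 0.406, adjusted p = 1.83e-11). It was lower in interneurons than in projection neurons (-2.40, 0.488, adjusted p = 0.000812), and Cajal-Retzius-like cells had 20.6 to 83.8 CPM. Efnb3 was higher in projection neurons than in apical progenitors by 2.35 (0.320, adjusted p = 2.05e-07), at 27.1 to 67.9 against 0 to 18.1 CPM, and interneurons had 34.5 to 148. Efna4 was higher in projection neurons than in apical progenitors by 0.93 (0.317, adjusted p = 0.0129) and lower in interneurons than in projection neurons (-2.92, 0.670, adjusted p = 0.00260). Efna4 also reached 73.5 CPM in intermediate progenitors and 51.9 in label 0. Efna1 was at 220 CPM over all 50 endothelial-like cells (61 counts; 169 to 283), and at 75.8 in those of E18.5 (9 counts).

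A list of 30 genes whose proteins act beside or below Eph receptors and ephrins was followed the same way. Between projection neurons and apical progenitors, 12 of 25 tested were higher, 5 lower and 8 did not pass, with a median difference of 0.47 against 0.04 over all genes. The share that passed is near the 60.7% of all genes, and is not a result about the list. Higher were Ptpro (4.57), a phosphatase that acts on Eph receptors, the exchange factor genes Itsn1 (2.17) and Kalrn (1.95), and Chn1 (1.84), which encodes a Rac inhibitor below EphA4. Lower were Inppl1 (-3.13), a lipid phosphatase that binds Eph receptors, the adaptor gene Nck1 (-2.34), Abl1 (-1.37), a kinase, and Rhoa (-1.22), the GTPase of growth cone collapse. Between projection neurons and intermediate progenitors, where 48.6% of all genes passed, 8 of the 25 were higher and 4 lower, led by Ptpro (3.62), Itsn1 (2.44), Vav2 (1.75) and Nck2 (1.14) and by Inppl1 (-4.03), Nck1 (-2.10), Abl1 (-1.70) and Rhoa (-0.64).

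Between intermediate and apical progenitors, 5 of the 25 were higher and 1 lower, against 27% of all genes that passed. Those named are Rgs3 (1.53), Chn1 (1.52), Kalrn (1.29) and Inppl1 (0.90), and Rhoa (-0.58). Between interneurons and projection neurons, against 13.3% of all genes, 2 of 25 were higher, Nck1 (2.24) and Grip1 (2.14), a scaffold that binds ephrin-B tails, and 2 lower, Sipa1l1 (-1.39) and Itsn1 (-1.02). With stage in apical progenitors, Fyn (0.21 per day), a kinase of forward signalling, rose and Crk (-0.14), an adaptor gene, fell, of 22 tested, against 9.31% of all genes. The slopes of Ptpro (-0.79) and Fyn (-0.27) were lower in projection neurons than in apical progenitors, of 27 tested, against 4.33% of all genes. In projection neurons (26 tested, 5 below an unadjusted p of 0.05), intermediate progenitors (16 tested, 4), interneurons (12 tested, 6) and label 0 (20 tested, 0) edgeR called 0 of the list by slope, a count not repeated with another tool.

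The genes most like Epha5 were sought over the 33 sums of 5 groups of cells and 7 samples, among 4209 genes with a mean of at least 50 CPM. The 5 with the highest Pearson correlation of log2(CPM + 1) were Pnpla8 (0.877), Cuedc2 (0.865), Gria2 (0.846), Myt1l (0.840) and Pdzd4 (0.838). The 33 points share libraries and classes and are not independent, so the values are a description.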

How the data were processed

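Dorsal forebrain of CD-1 embryos was dissociated with papain and captured with Drop-seq (protocol 3.1), per the labels' protocols. Drop-seq tools, Seurat 3.1.5 and the mm10 genome are named in the submitters' processing notes. The deposited values are raw UMI counts for each cell, with 19 cluster numbers. Aligner, annotation and strand are not given in the sources used here, so reads of overlapping genes may not be separable. The deposited cells start at 501 detected genes, and their mitochondrial share ends at 9.996% of UMIs.

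Cells were mapped to 7 samples by the names of 12 libraries. 1 library of E14.5 replicate 1 was assigned by inference. 4 barcodes occurred in more than 1 library, 1 of them in 7, and were kept. 13 erythroid cells (over 2% haemoglobin UMIs) were set aside. Scrublet called 95 doublets (0.926%), left out only as an alternative.

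Labels were named from marker lists: at least 3 markers at 2-fold were needed, and a label stayed unnamed where another class led its top 10 genes. Counts were summed per class and sample with at least 20 cells (projection neurons and label 0 from E12.5 on). edgeR 4.0.16 (R 4.3.3; filterByExpr, TMM, quasi-likelihood test, two-sided) fitted slopes on embryonic day per class, and class differences and differences of slope with the sample as a block. P-values were adjusted by Benjamini-Hochberg over all genes tested, at a threshold of 0.05. The sample block rests on the classes being taken from the same dissociated tissue. The script was checked on simulated data. Intervals are exact Poisson, binomial or conditional at 95%; a count of 0 allows 3 counts. Confidence intervals and floors cover counting error only.

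Alternatives were DESeq2 1.42.0, its size factors, no count filter, no block, stricter cell filters, doublets left out, new clustering, and each sample left out. Leaving out labels 6, 9 and 12 or the inferred library was chosen after seeing the data. The members and lists were chosen with earlier results of these data known. Named genes are the 10 members, other family genes that passed or reached 50 CPM in a class, up to 4 called genes of the signalling list per direction by size, and the 5 most like Epha5.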

Additional observations from a re-analysis of the deposited data

Results flagged for a closer look

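The stage slopes of 2 members differed between projection neuron-like and apical progenitor-like cells by the test of the difference itself. For Epha3 the projection neuron slope exceeded the apical slope by 0.522 on the log2 scale per day, and for Epha4 by 0.4647. The Epha3 call was lost under 8 alternatives, among them DESeq2 (adjusted p = 0.245), and the Epha4 call without label 9 (0.17) and without E18.5 (0.26). Leaving out label 9, which has the highest Epha4 and a growing share, had to lower the Epha4 value. A sample far from the others of its group could not be looked for, since no stage had more than 2 samples.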

How the results depend on the processing

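The number of members called was recomputed under each alternative. With DESeq2 it was 1 between intermediate and apical progenitors (2 with edgeR), and by slope 2 in apical progenitors (1 with edgeR), 2 in projection neurons (1), 1 in intermediate progenitors (0) and 1 for the difference of slopes (2). With no filter on low counts it was 3 by slope in apical progenitors, 3 in projection neurons and 1 in intermediate progenitors. Without the sample block, that is without the pairing of classes by replicate, it was 1 between intermediate and apical progenitors, 1 between interneurons and projection neurons and 1 for the difference of slopes. With at most 5% mitochondrial UMIs it was 0 between interneurons and projection neurons, 0 by slope in label 0 and 1 for the difference of slopes. Interneuron slopes could not be fitted there. That cut removed whole sums: E16.5 in apical progenitors, E10.5, E16.5 and E18.5 in intermediate progenitors, and E16.5 and E18.5 in label 0. Interneurons kept E12.5 and E14.5 only. The cell filter and the loss of samples cannot be told apart in these values. Clustering anew gave 1 by slope in intermediate progenitors. Among alternatives chosen after seeing the data, leaving out label 6 gave 2 by slope in apical progenitors, leaving out label 9 gave 0 by slope in projection neurons and 1 for the difference of slopes, and leaving out label 12 gave 1 for the latter. A threshold of 3-fold in place of 2-fold gave 1 between E12.5 and E10.5, and the Epha5 ratio was 18.89 without label 6 (34.38 with it).

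With 1 sample left out, the counts ran from 1 to 3 between intermediate and apical progenitors and between interneurons and projection neurons, 5 to 7 between projection neurons and apical progenitors and 4 to 7 between projection neurons and intermediate progenitors. By slope they were 1 to 2 in apical progenitors, 0 to 1 in intermediate progenitors, projection neurons, interneurons and label 0, and 0 to 2 for the difference of slopes. Values that changed sign had not passed the test. They were Epha4 between interneurons and projection neurons without label 9 (0.0912), the Epha5 slope in intermediate progenitors on clustering anew (-0.0199) and the Epha5 difference of slopes with at most 5% mitochondrial UMIs (-0.0265). With 1 sample left out, Epha5 ran from -0.0079 to 0.255 between intermediate and apical progenitors. Its slope then ran from -0.14 to 0.43 in apical progenitors, -0.18 to 0.32 in intermediate progenitors and -0.18 to 0.57 in interneurons, and its difference of slopes from -0.0425 to 0.0965. The cause of these changes was not tested. Depth limits the sparse members: Efna2, Efna5 and Ephb1 had 0 counts in some sums of interneuron- or intermediate progenitor-like cells.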
